A study of Homo sapiens with 8 samples.

Results

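The matrix metalloproteinases (MMPs) were followed through the loss of ETS1 in SCC25, a cell line from a squamous carcinoma of the tongue. The members were taken by name: the rows MMP1, MMP2, MMP3, MMP7, MMP9, MMP10, MMP12, MMP13, MMP14 and MMP28 of the count tables, which are 10 of 56638 gene symbols. The 8 libraries formed 4 groups of 2. The short-term groups were siRNA control (cells treated with non-targeting siRNAs) and ETS1 siRNA (cells treated with a pool of 4 siRNAs against ETS1), and the stable groups were shCON (cells with a non-targeting hairpin) and shETS1 (cells with a hairpin against ETS1). All cells were grown with 400 ng/ml hydrocortisone, and the hairpin cells of both groups had been infected with lentivirus and selected with 2 µg/ml puromycin. The study's methods call the siRNA-treated cells biological replicates. The origin of the hairpin replicates was not given in the sources used here, so p-values measure the spread between these samples, which may be technical for the hairpin libraries. The labels of shETS1 name only hairpin 3, so that effects of this hairpin and of the loss of ETS1 cannot be told apart.

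MMPs are zinc-dependent endopeptidases that are made as inactive proenzymes and, once a propeptide is removed, cut collagens, gelatin, proteoglycans and laminins as well as receptors and growth factors at the cell surface. Carcinoma cells and the stroma around them use these enzymes in invasion and in remodelling of the basement membrane, and tissue inhibitors of metalloproteinases (TIMPs) block them. Promoters of many MMP genes carry binding sites for AP-1 and for ETS factors, which is why the family is a classical readout of ETS1.

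A few facts of the libraries frame the values. Total counts ranged from 15954616 to 25953213 per library, and within each group the replicates differed beyond sampling noise. ETS1, the targeted gene (chr11:128328656-128457453, minus strand, GRCh37), had 5726 and 3977 counts in siRNA control against 299 and 268 in ETS1 siRNA, and 2069 and 1871 in shCON against 224 and 279 in shETS1. Its log2 fold change was -4.13 (SE 0.19, edgeR adjusted p = 0.00017) in the siRNA comparison and -2.89 (SE 0.10, edgeR adjusted p = 3.8e-13) in the shRNA comparison. The 9 squamous epithelial markers were high in every library and summed to more in the knockdowns. They stood at 16153 and 20967 CPM (counts normalised to the scaled size of each library) in siRNA control, 28046 and 24140 CPM in ETS1 siRNA, 15909 and 16015 CPM in shCON, and 26582 and 26187 CPM in shETS1. Of the 9, 0 were called (adjusted p under 0.1) in the siRNA comparison, beside 3.41% of all genes tested. In the shRNA comparison 8 were called (5 higher, 3 lower), beside 60.6% of all genes tested. The leukocyte markers summed to between 3.49 and 5.09 CPM. Among them the B cell gene MS4A1 had no count in any library. CD14 had 45 counts in siRNA control, 44 in ETS1 siRNA, 163 in shCON and 146 in shETS1, each over the libraries of the group. Of 2 leukocyte markers tested in the shRNA comparison 1, CSF1R, was called lower (log2 fold change -0.83, edgeR adjusted p = 0.077), beside 30.9% of all genes tested. Non-polyadenylated structural RNAs took at most 0.00339% of the counts in the siRNA libraries, 5.61% and 6.63% in shCON, and 12.3% and 9.64% with the ETS1 hairpin.

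The family is spread over 5 chromosomes. Of the members 6, MMP7, MMP10, MMP1, MMP3, MMP12 and MMP13, lie in a cluster of 9 MMP genes on chromosome 11 (chr11:102391239-102826461, GRCh37), which spans 435.2 kb and in which all 9 genes are on the minus strand. MMP2 lies at chr16:55423612-55540603, MMP9 at chr20:44637547-44645200, MMP14 at chr14:23305769-23318250 and MMP28 at chr17:34083268-34122711. Start regions of 3 members, MMP7, MMP10 and MMP14, were found in a RefSeq promoter table (GRCh38.p14) and were placed on GRCh37 by an exact match. The 250 bases before the start sites of MMP7 (chr11:102401479-102401728, minus strand) and MMP10 (chr11:102651360-102651609, minus strand) are shown here, 5′ to 3′. These genes of the cluster hold the same type of AP-1 site but had very different counts in shCON and shETS1, with MMP7 the higher. In siRNA control MMP10 was the higher, with 43 and 20 counts against 4 and 19 for MMP7, which is nearly equal in replicate 2. In ETS1 siRNA the order differed between replicates, with 18 and 39 counts for MMP10 and 24 and 17 for MMP7. Capitals mark the AP-1 motif TGANTCA and the PEA3-type ETS motif AGGAAG, which reads CTTCCT where it lies on the other strand.
MMP7: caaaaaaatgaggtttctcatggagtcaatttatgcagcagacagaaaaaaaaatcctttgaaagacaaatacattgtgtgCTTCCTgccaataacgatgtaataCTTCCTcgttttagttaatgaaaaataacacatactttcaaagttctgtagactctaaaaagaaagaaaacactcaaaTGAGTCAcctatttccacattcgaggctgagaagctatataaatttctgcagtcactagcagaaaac
MMP10: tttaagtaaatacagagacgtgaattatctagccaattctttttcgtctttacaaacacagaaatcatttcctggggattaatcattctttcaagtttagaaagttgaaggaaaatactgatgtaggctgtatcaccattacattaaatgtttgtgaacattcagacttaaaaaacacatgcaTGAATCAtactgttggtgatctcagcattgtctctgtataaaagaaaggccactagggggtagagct
Both regions hold an AP-1 match whose first base is at position -67, counted back from the start site, which reads TGAGTCA in MMP7 and TGAATCA in MMP10. MMP7 has in addition PEA3-type matches at -169 and -145. The start region of MMP14, from 250 bases before to 50 bases after the start site, holds neither motif, but has the ETS core motif CCGGAA at position 41 after the start. No match overlapped another. On either strand, TGANTCA was found in 7.72%, AGGAAG in 33.7% and CCGGAA in 17.2% of 34943 promoters of the same length, and a match is a description of letters, not of binding.

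The first question was whether short-term loss of ETS1 changed the MMP genes. None of the 10 members was called in the siRNA comparison (edgeR's quasi-likelihood test, Benjamini-Hochberg adjusted p under 0.1), where 3.41% of 14742 genes tested were called. All 10 passed the filter on low counts. MMP3 and MMP28 had an unadjusted p below 0.05, as had 2721 of the 14742 genes tested, so that this number was near the background. The family's median log2 fold change was 0.0015 beside 0.0018 over all genes tested. DESeq2 called 1 member, MMP28.

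MMP28, or epilysin, an MMP of keratinocytes, came nearest to a call. It stood at 29.5 and 40.7 CPM in siRNA control and at 62.8 and 51.4 CPM in ETS1 siRNA, so that the groups did not overlap. Its log2 fold change was 0.70 (SE 0.18, edgeR adjusted p = 0.103), and over the alternatives the adjusted p ran from 8.1e-06 to 0.71, the latter without siRNA control replicate 1. MMP3, or stromelysin-1, which cuts proteoglycans and activates other proenzymes, was the other member whose groups did not overlap. The share of all genes whose groups were separate was not counted, so the separation of these members has no background beside it. It had 14.4 and 16.8 CPM in siRNA control and 13.3 and 8.82 CPM in ETS1 siRNA, with a log2 fold change of -0.50 (SE 0.21, edgeR adjusted p = 0.27). It was called without ETS1 siRNA replicate 1 (-0.81, edgeR adjusted p = 0.039).

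The collagenases did not differ beyond their spread. MMP1, interstitial collagenase, had 35.5 and 50.8 CPM in siRNA control and 47.8 and 37.5 CPM in ETS1 siRNA. MMP13, collagenase-3, had 418 and 299 CPM against 366 and 515 CPM. Their log2 fold changes were -0.015 (SE 0.19) for MMP1 and 0.30 (SE 0.21) for MMP13, with edgeR adjusted p of 0.98 and 0.48. In both genes the control values enclosed, or were interleaved with, those of the knockdown.

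The gelatinases, which digest denatured collagen and type IV collagen of the basement membrane, were also interleaved. MMP2 had 184 and 135 CPM in siRNA control and 156 and 203 CPM in ETS1 siRNA, and its log2 fold change was 0.17 (SE 0.19, edgeR adjusted p = 0.67). MMP9 had 125 and 197 CPM against 148 and 90.1 CPM, with a log2 fold change of -0.43 (SE 0.27, edgeR adjusted p = 0.43), and was called without ETS1 siRNA replicate 1 (-0.83, edgeR adjusted p = 0.059). MMP14, or MT1-MMP, a membrane-bound collagenase that activates the proenzyme of MMP2, was the least variable member. It was at 1322 and 1244 CPM in siRNA control and 1259 and 1310 CPM in ETS1 siRNA, and the 95% interval of its log2 fold change, -0.26 to 0.26, was the narrowest of the 10.

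MMP10, MMP12 and MMP7 had few reads in the siRNA libraries. MMP10, stromelysin-2, had 43 and 20 counts in siRNA control and 18 and 39 counts in ETS1 siRNA. MMP12, the macrophage metalloelastase, had 17 and 27 counts against 31 and 15 counts. MMP7, or matrilysin, a short MMP of epithelia that lacks the hemopexin domain, had 4 and 19 counts against 24 and 17 counts, and its log2 fold change of 0.74 (SE 0.67) ran from -0.10 without siRNA control replicate 1 to 2.42 without siRNA control replicate 2. The 95% intervals of the log2 fold change were wide, at -1.15 to 0.75 for MMP10, -1.17 to 1.17 for MMP12 and -0.79 to 2.26 for MMP7.

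The siRNA replicates varied in a crossed manner. MMP2, MMP10, MMP13 and MMP14 were higher in replicate 1 than in replicate 2 of siRNA control and lower in replicate 1 than in replicate 2 of ETS1 siRNA. The other 6 members had the opposite order in both groups.

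**Figure D1:**
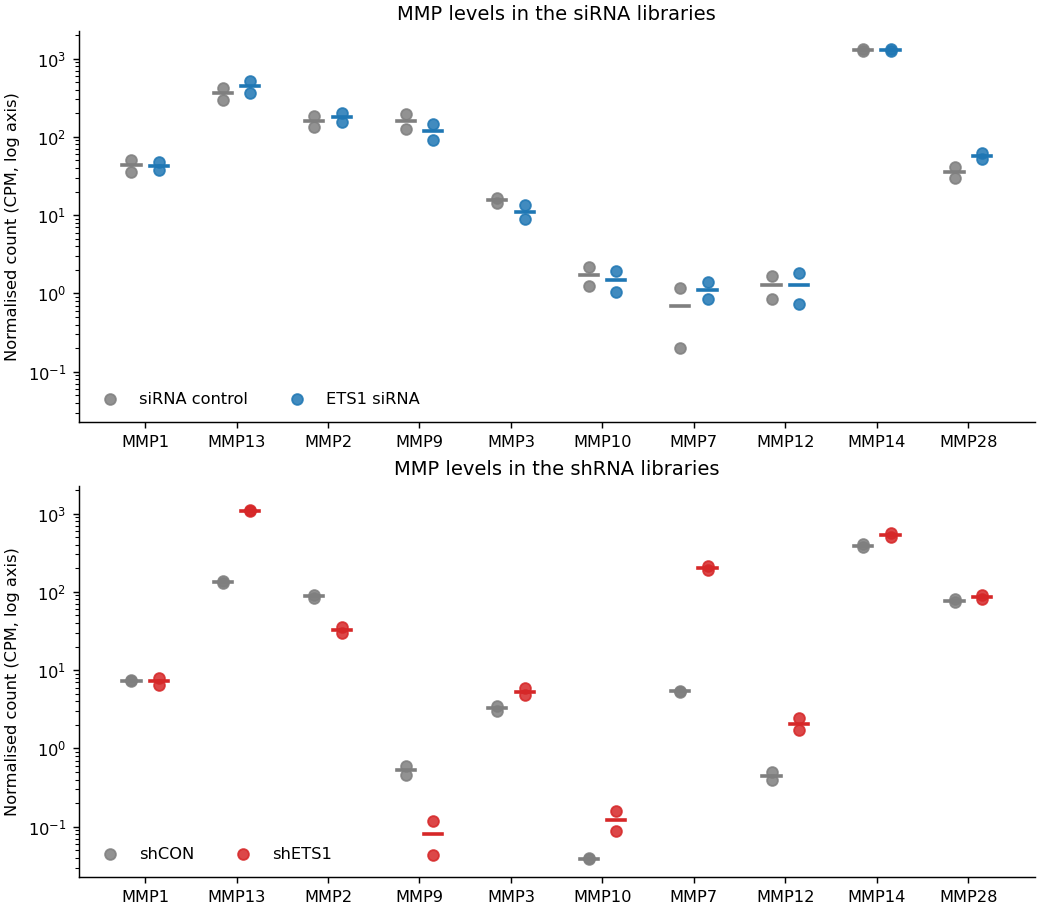
Level of each MMP gene by library, as normalised count (CPM) on a log axis, in the siRNA libraries (top) and the shRNA libraries (bottom). Each point is 1 library and each bar the mean of 2 libraries. In the top panel only MMP3 and MMP28 have groups that do not overlap, a trait whose share over all genes was not counted. In the bottom panel MMP7 and MMP13 stand far above shCON and MMP2 stands below it.

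Stable loss of ETS1 was accompanied by large changes of the family. Of the 9 members tested in the shRNA comparison, 7 were called, 5 higher and 2 lower (1 of these, MMP9, passed the filter on low counts only through shCON), beside 60.6% of 16481 genes tested, so that the number of calls in itself was near the background. The size of the changes ranged from a log2 fold change of 5.24 for MMP7 to -1.41 for MMP2 among the members that passed the filter in both groups. Members called with a change of at least 2-fold were MMP7, MMP13, MMP12, MMP2 and the low-count MMP9, beside 14.6% of all genes tested. The median log2 fold change of the 9 members, MMP9 included, was 0.47 beside 0.00066 over all genes. MMP10 was not tested, since it did not pass the filter on low counts.

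MMP7 had the highest rise of the members. It had 137 counts in each shCON library and 4896 and 4825 counts in the shETS1 libraries, or 5.45 and 5.28 CPM against 213 and 191 CPM. The log2 fold change was 5.24 (SE 0.10, edgeR adjusted p = 5.0e-16), a 37.7-fold rise. MMP13 also rose, from 3253 and 3566 counts in shCON to 25164 and 27441 counts in shETS1, or from 129 and 137 CPM to 1096 and 1088 CPM. This was an 8.19-fold rise with a log2 fold change of 3.03 (SE 0.085, edgeR adjusted p = 2.8e-14). In both genes the gap between the groups was far larger than the difference between replicates, which was at most 1.12-fold in MMP7 and 1.06-fold in MMP13.

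MMP12, MMP3 and MMP14 rose by less. MMP12 remained low, with 10 and 13 counts in shCON and 39 and 61 counts in shETS1, and its log2 fold change was 2.19 (SE 0.34, edgeR adjusted p = 3.7e-05). MMP3 had 3.50 and 3.04 CPM in shCON and 4.75 and 5.87 CPM in shETS1, with a log2 fold change of 0.70 (SE 0.18, edgeR adjusted p = 0.0031). MMP14 rose 1.39-fold, from 403 and 373 CPM to 571 and 507 CPM (log2 fold change 0.47, SE 0.083, edgeR adjusted p = 0.00011). The groups of these 3 genes did not overlap, a trait whose share over all genes was not counted.

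MMP2 was the member that fell with ample counts. It had 2316 and 2141 counts in shCON and 681 and 902 counts in shETS1, or 92.1 and 82.5 CPM against 29.7 and 35.8 CPM, and was 2.67-fold lower (log2 fold change -1.41, SE 0.094, edgeR adjusted p = 1.2e-09). MMP9 was nearly silent in the hairpin libraries, with 15 and 12 counts in shCON and 1 and 3 counts in shETS1. It passed the filter only through shCON, and its fitted log2 fold change of -2.60 (SE 0.67, edgeR adjusted p = 0.0031) depends on the prior count. The ratio of the pooled counts was 6.37-fold lower in shETS1, with an exact 95% interval of 2.22-fold to 25.0-fold that covers counting error only.

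MMP1 and MMP28 were not called in the hairpin libraries. MMP1 had 7.52 and 7.21 CPM in shCON and 7.93 and 6.46 CPM in shETS1, and the 95% interval of its log2 fold change was -0.34 to 0.27. MMP28 had 74.2 and 80.6 CPM in shCON and 91.2 and 81.7 CPM in shETS1 (log2 fold change 0.16, SE 0.080, edgeR adjusted p = 0.101), so that the groups were separate by a narrow margin. MMP10 had 1 count in each shCON library and 2 and 4 counts in shETS1, a ratio of 3.18 with an exact 95% counting interval of 0.569 to 32.2.

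**Figure D2:**
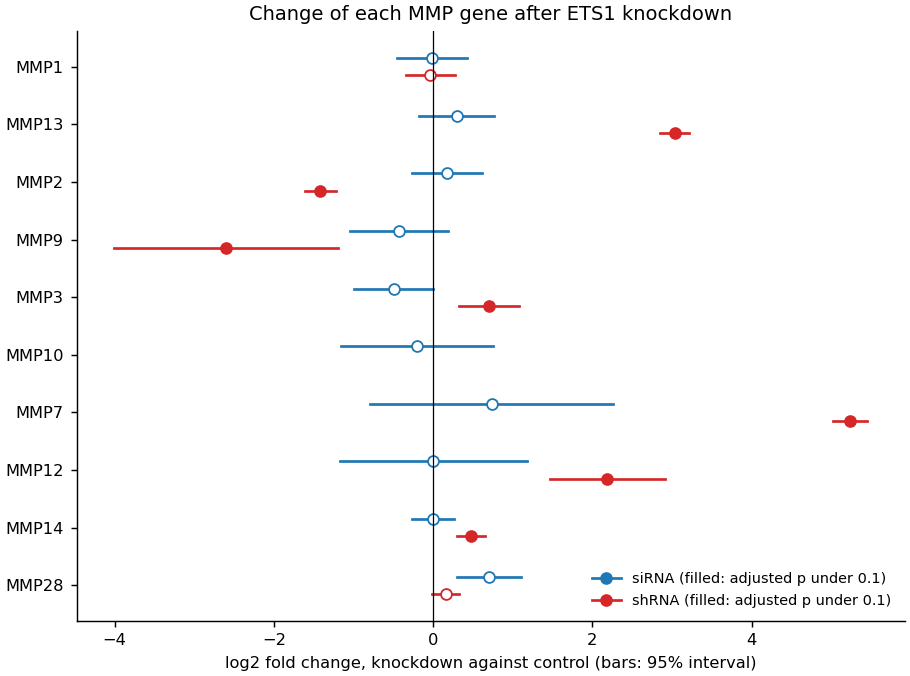
Log2 fold change of each MMP gene, knockdown against its own control, with 95% intervals (siRNA in blue, shRNA in red, filled points for an adjusted p under 0.1). The 10 siRNA points are all open and lie between -0.50 and 0.74, while the shRNA points reach from -2.60 for MMP9, which passed the filter only through shCON, to 5.24 for MMP7. MMP10 has no shRNA point since it was not tested there.

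Several fibroblast markers and the endothelial marker KDR were higher in shETS1 than in shCON. The 6 fibroblast markers summed to 230 and 261 CPM in shCON and to 2046 and 1947 CPM in shETS1. Of these, 4 passed the filter and all 4 were called higher, beside 29.7% of all genes tested. The largest changes were those of DCN (log2 fold change 3.29, SE 0.088) and LUM (log2 fold change 2.95, SE 0.092), small proteoglycans of connective tissue. THY1 stayed at 3 and 3 counts in shCON and 2 and 4 counts in shETS1, and PDGFRB at 8 and 6 counts against 9 and 8 counts. The 4 endothelial markers summed to 2.03 and 1.97 CPM in shCON and 24.1 and 23.9 CPM in shETS1, which came from KDR, a VEGF receptor (log2 fold change 3.76, SE 0.14), while PECAM1 and CDH5 had no count in any hairpin library. In the siRNA libraries the fibroblast markers summed to 168 and 150 CPM in the control and 239 and 270 CPM in the knockdown. Of the 6 tested there, COL1A1 was the only one called (log2 fold change 0.73, SE 0.14, edgeR adjusted p = 0.0496), beside 3.41% of all genes tested. The part of these markers, and of the structural RNAs above, in the changes of the MMP genes was not tested. In bulk samples a change in the number of cells of a type and a change in RNA per cell cannot be told apart.

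The hairpin and the siRNA changes were then compared directly, in a fit of all 8 libraries that tested the shRNA effect minus the siRNA effect. Of the 10 members, 7 were called, beside 34.8% of 17190 genes tested. Of these 5, MMP7, MMP13, MMP12, MMP3 and MMP14, changed more upward in the shRNA comparison, by 4.46 for MMP7 (SE 0.68, edgeR adjusted p = 0.00095) and 2.72 for MMP13 (SE 0.25, edgeR adjusted p = 5.9e-05) on the log2 scale. MMP2 differed by -1.61 (SE 0.24, edgeR adjusted p = 0.00090), with a change of -1.41 in the shRNA and 0.17 in the siRNA comparison. MMP28, with a difference of -0.57 (SE 0.22, edgeR adjusted p = 0.078), was higher than its control in both comparisons but by less with the hairpin. The calls of MMP12, MMP14 and MMP28 were lost under 4, 3 and 7 of 14 alternatives, among them leaving out siRNA control replicate 2 for MMP12 (1.62), shCON replicate 2 for MMP14 (0.39) and siRNA control replicate 1 for MMP28 (-0.36). The difference of MMP7 was 2.79 without siRNA control replicate 2. No difference was called for MMP1 (-0.041, edgeR adjusted p = 0.95), MMP9 (-2.17, edgeR adjusted p = 0.15) or MMP10 (1.72, edgeR adjusted p = 0.30). The intervals of MMP9 and MMP10 were wide, at -4.47 to 0.12 and -0.77 to 4.20. The difference of MMP9 kept its sign under all 13 alternatives that gave a value and was called under 4 of them. The siRNA and shRNA libraries also differ in the share of structural RNAs given above. Mitochondrial genes had 0% of the counts in every siRNA library and 0.508% to 0.820% in the hairpin libraries, and the cause was not tested. The duration of the loss, the reagent and the preparation of the libraries cannot be told apart.

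The make-up of the family was compared per length, as CPM per kilobase of exon. The whole family stood at 558 and 530 in siRNA control and at 544 and 583 in the siRNA knockdown. It stood at 183 and 179 in shCON, whereas the shETS1 libraries had 644 and 616. MMP14 took the highest share in siRNA control (51.0% ± 0.34, SD, n = 2), ETS1 siRNA (49.3% ± 1.02) and shCON (46.3% ± 1.82), but only 18.5% ± 0.98 in shETS1. MMP13 went from 26.0% ± 1.54 of the family in shCON to 61.2% ± 1.55 in shETS1, and MMP7 from 1.28% ± 0.0072 to 13.8% ± 0.64. MMP2 went from 10.2% ± 0.63 to 1.11% ± 0.18 and MMP28, whose own level was not called, from 13.4% ± 1.00 to 4.30% ± 0.20. These shares sum to a whole and therefore do not move independently.

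By level per kilobase, the order in siRNA control was MMP14, MMP13, MMP9, MMP2, MMP1, MMP28, MMP3, MMP10, MMP12 and MMP7. In this order MMP10 and MMP12, and MMP12 and MMP7, overlapped between replicates. In ETS1 siRNA MMP28 stood before MMP1, but their replicates overlapped, as did those of MMP9 and MMP2, MMP10 and MMP12, and MMP12 and MMP7. In shCON the order was MMP14, MMP13, MMP28, MMP2, MMP1, MMP7, MMP3, MMP12, MMP9 and MMP10, where only MMP12 and MMP9 overlapped. In shETS1 it was MMP13, MMP14, MMP7, MMP28, MMP2, MMP3, MMP1, MMP12, MMP10 and MMP9, where MMP3 overlapped with MMP1 and MMP10 with MMP9. Between shCON and shETS1, MMP7 went from the sixth place to the third, and MMP13 passed MMP14.

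**Figure D3:**
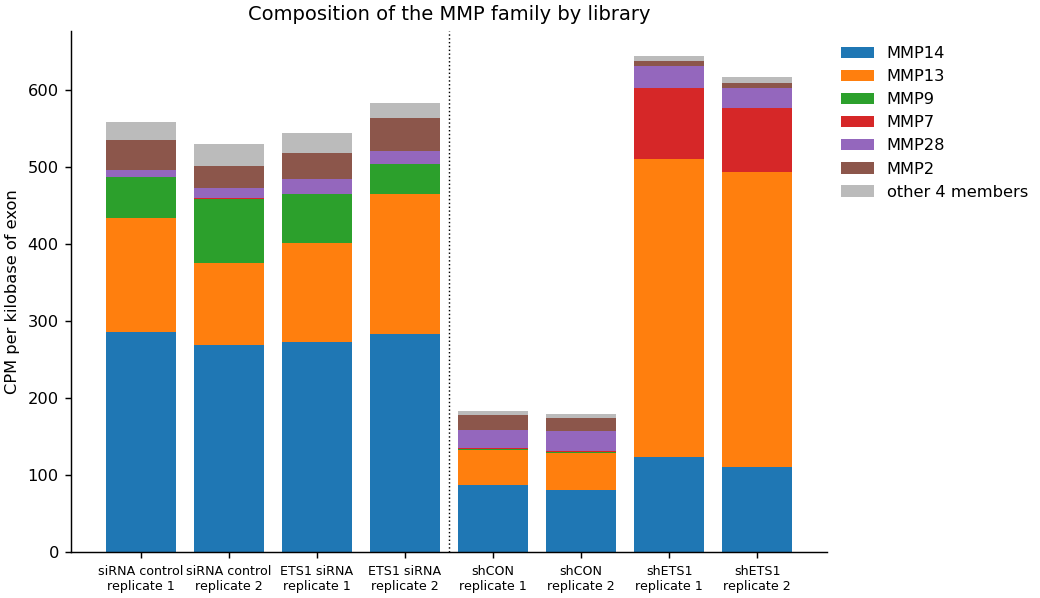
Level of the MMP family per library, as CPM per kilobase of exon, stacked by member (the other 4 members, MMP1, MMP3, MMP10 and MMP12, pooled in grey). The dotted line separates the siRNA and shRNA tables, which were scaled separately. The shETS1 bars reach 644 and 616 against 183 and 179 in shCON, and most of the added height is MMP13 and MMP7.

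Position on chromosome 11 was not shared by all changes. Of the 6 cluster members, MMP7, MMP13, MMP12 and MMP3 rose in shETS1, MMP1 was not called and MMP10 was not tested. MMP20, or enamelysin, a tooth enamel MMP of the same cluster, had no count in shCON and 40 and 33 counts in shETS1, which was at least 13.0-fold higher when 3 counts per library are taken as the floor. MMP8 and MMP27, the remaining genes of the cluster, had 0 counts and 1 count in the hairpin libraries together. Of 13 genes flanking or lying within the cluster, 8 were tested and 7 were called in the shRNA comparison, 4 higher and 3 lower, beside 29.7% of all genes tested called higher and 30.9% lower. BIRC3, an inhibitor of apoptosis in NF-kB signalling, rose (log2 fold change 1.93, SE 0.079, edgeR adjusted p = 2.7e-12) and YAP1, the Hippo pathway coactivator, fell (log2 fold change -0.64, SE 0.084, edgeR adjusted p = 4.8e-06). In the siRNA comparison 2 of 8 flanking genes tested were called, both lower, beside 2.27% of all genes called lower. They were BIRC3 (log2 fold change -0.95, SE 0.19, edgeR adjusted p = 0.055) and DYNC2H1, a ciliary dynein (log2 fold change -0.91, SE 0.19, edgeR adjusted p = 0.068).

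**Figure D4:**
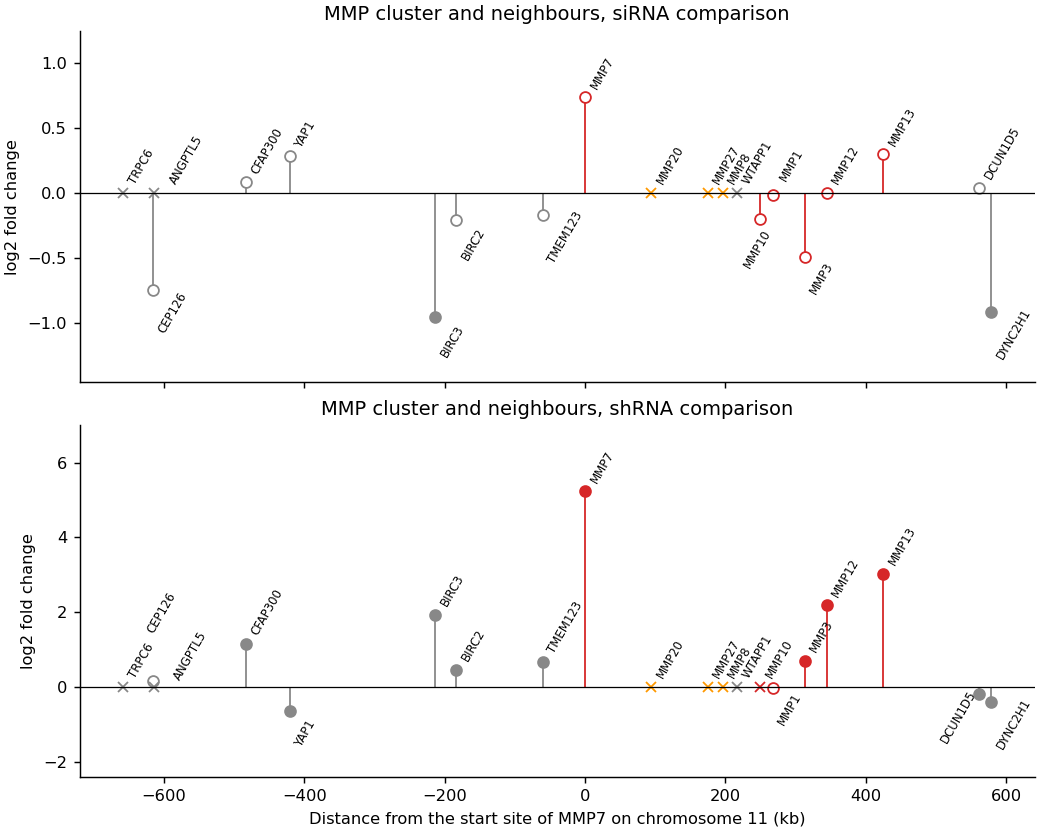
Log2 fold change of MMP genes (red), other MMP genes (orange) and flanking genes (grey) against the distance of their start sites from that of MMP7 on chromosome 11, in kb, for the siRNA (top) and shRNA (bottom) comparisons. Filled points have an adjusted p under 0.1, and crosses mark genes that were not tested, or MMP20, whose fold in the shRNA comparison is only a lower bound. MMP7, MMP12 and MMP13 reach 5.24, 2.19 and 3.03 in the bottom panel, with MMP1 between them at -0.04.

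Outside the 10 members, 13 other MMP genes were counted. In the shRNA comparison 6 of them passed the filter on low counts and 3 were called, beside 60.6% of all genes. MMP20 passed only through shETS1. Of the others, MMP24, or MT5-MMP, rose from 27 and 19 counts to 36 and 34 counts (log2 fold change 0.69, edgeR adjusted p = 0.075), and MMP17, or MT4-MMP, fell from 115 and 135 counts to 60 and 55 counts (log2 fold change -1.03, SE 0.19, edgeR adjusted p = 0.00019). The median of the 6 was -0.10. In the siRNA comparison none of 5 tested was called, beside 3.41% of all genes, and their median was 0.17.

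The inhibitors went in both directions after stable loss of ETS1, with 2 called higher and 2 lower of 5 tested, beside 60.6% of all genes called. TIMP1 fell from a mean of 62.7 CPM ± 2.34 (SD, n = 2) to 22.2 CPM ± 1.39 (log2 fold change -1.50, SE 0.086, edgeR adjusted p = 2.0e-10), and TIMP3, the matrix-bound TIMP, from 321 CPM ± 9.76 to 229 CPM ± 9.21 (log2 fold change -0.49, SE 0.074, edgeR adjusted p = 2.5e-05). RECK, a membrane-anchored inhibitor, rose from 2.89 CPM ± 1.04 to 6.77 CPM ± 0.018 (log2 fold change 1.22, edgeR adjusted p = 5.4e-05). TIMP4, the other inhibitor called higher, passed the filter on low counts only through shETS1. It rose from 10 and 6 counts to 23 and 18 counts (log2 fold change 1.43, edgeR adjusted p = 0.013). TIMP2, which takes part in the activation of MMP2 by MMP14, was not called (log2 fold change -0.093). A2M, the sixth of the list, was not tested. The siRNA comparison called none of the 5 inhibitors tested, beside 3.41% of all genes.

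Proteases and receptors that activate or bind MMPs were mostly lower in shETS1. Of 13 genes in this list, 10 were tested, 2 were called higher and 7 lower, beside 29.7% and 30.9% of all genes, with a median log2 fold change of -0.73 beside 0.00066 over all genes. LCN2, lipocalin-2, which binds MMP9, fell by 1.91 on the log2 scale. PLAUR, the urokinase receptor, fell by 1.38, and PLAU, urokinase itself, by 0.83. FURIN, the convertase that removes the propeptide of MMP14, decreased by 0.89, and CD44, which docks MMP9 and MMP14 at the cell surface, decreased by 0.96. The SEs of these 5 changes were 0.085 to 0.15, and their edgeR adjusted p was at most 1.9e-06. The siRNA comparison called only PLAT, tissue plasminogen activator, of 10 tested (log2 fold change -0.93, SE 0.19, edgeR adjusted p = 0.064), beside 3.41% of all genes.

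The AP-1 factors moved in both directions. All 10 were tested in the shRNA comparison, 4 were called higher and 3 lower, beside 60.6% of all genes called, and the median was 0.063. FOSL1 fell from 23.0 CPM ± 0.042 in shCON to 2.29 CPM ± 0.21 in shETS1 (log2 fold change -3.33, SE 0.14, edgeR adjusted p = 3.1e-12). BATF rose from 44 and 51 counts to 229 and 210 counts (log2 fold change 2.29, SE 0.18, edgeR adjusted p = 1.0e-08), and FOSL2 rose from 158 CPM ± 10.7 to 291 CPM ± 9.70 (log2 fold change 0.88). In the siRNA comparison none of 9 tested was called, beside 3.41% of all genes.

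Of 12 further ETS factors tied to MMP promoters, 3 were called higher and 8 lower in the shRNA comparison, beside 29.7% and 30.9% of all genes, with a median of -0.77 against 0.00066 over all genes. FLI1 fell from 25.0 CPM ± 0.33 to 2.38 CPM ± 0.33 (log2 fold change -3.40, SE 0.14, edgeR adjusted p = 2.6e-12), and ETV4, the founding PEA3 factor, from 30.0 CPM ± 1.08 to 5.58 CPM ± 0.43 (log2 fold change -2.43, SE 0.12, edgeR adjusted p = 1.7e-11). In the siRNA comparison 1 of 12, ELF4, was called (log2 fold change 0.66, SE 0.15, edgeR adjusted p = 0.083), beside 3.41% of all genes.

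**Figure D5:**
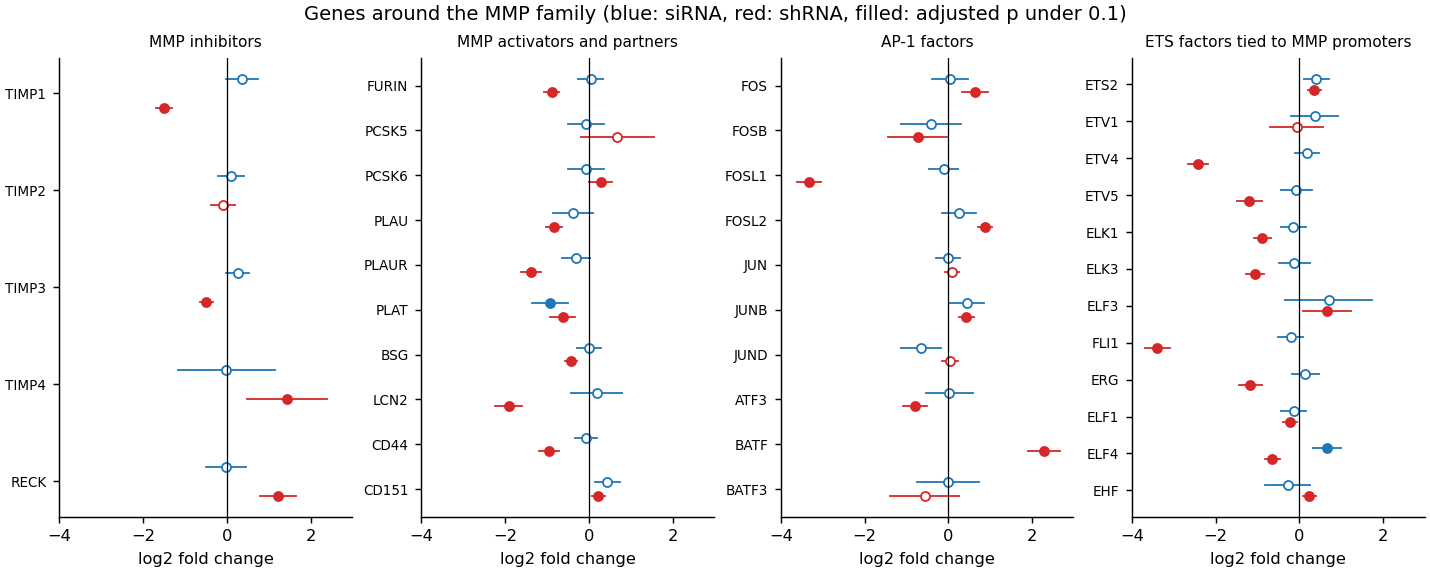
Log2 fold change with 95% interval for the MMP inhibitors, activators and partners, AP-1 factors and further ETS factors that were tested, with siRNA in blue, shRNA in red and filled points for an adjusted p under 0.1. The siRNA points are open except for PLAT and ELF4. The shRNA points of FOSL1 and FLI1 lie farthest to the left, at -3.33 and -3.40, and that of BATF farthest to the right, at 2.29.

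Some members share sequence with other genes. MMP9 shares 430 exon bases (18.4% of its exon length) with SLC12A5-AS1 and MMP1 shares 223 (8.14%) with the pseudogene WTAPP1, both on the opposite strand. MMP2 shares 174 (3.70%) with another gene on the same strand, and 2.70% of its words of 50 bases, the read length, occur in that gene. WTAPP1 had 31 counts in the 8 libraries together. MMP3 and MMP10 hold common words of this length, which are 3.18% of those of MMP3 and 3.36% of those of MMP10. The use of strand and of reads with several matches in the counting was not given in the sources used here, so these genes may share a part of their reads.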

How the data were processed

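RNA of SCC25 cells was sequenced in 8 libraries, 2 in each of 4 groups taken from the labels. Per the labels and the study's methods, the authors prepared TruSeq libraries, sequenced single ends of 50 bases, aligned these to GRCh37 using TopHat2 2.1.1 on Bowtie2 2.2.6, and counted reads per Ensembl gene with featureCounts 1.5.0 (versions as in the submitters' processing notes). The deposited values are raw, unnormalized counts for each symbol, with the siRNA and shRNA libraries in separate tables. Every per-sample column was used. The symbols numbered 56638, of which 21266 had no count.

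Knockdown and matched control (4 libraries) were compared in edgeR 4.0.16 (R 4.3.3) by its quasi-likelihood F-test, two-sided, after TMM scaling, filterByExpr and Benjamini-Hochberg adjustment over all genes tested. The authors used DESeq2 at the same threshold of 0.1 on protein-coding genes, and DESeq2 1.42.0 was an alternative here. CPM values were scaled within each table, so levels in the siRNA and shRNA tables are not directly comparable. The common dispersion was 0.0192 for the siRNA and 0.0040 for the shRNA libraries, so the siRNA comparison was the less precise. A difference between knockdowns was tested in a fit of 8 libraries. Counting intervals and floors (3 counts) cover counting error only. Exon lengths and coordinates came from GENCODE v44 lifted to GRCh37, and simulated counts were used to check the edgeR fits.

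The members and the lists were chosen with earlier results of these data known. Every member was named with its value in each library, ETS1 was named as the target, and other lists were counted and named where called at a mean of at least 5 CPM, at most 5 per list and comparison, while other MMP genes and inhibitors could all be named. MS4A1, CD14, CSF1R, PECAM1, CDH5, THY1 and PDGFRB were named among markers after their values were seen. Alternatives were other scalings, filters and tests, a replicate block, a joint fit of all libraries, and leaving out each library in turn.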

Additional observations from a re-analysis of the deposited data

Results flagged for a closer look

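The change of 7 members differed between the knockdowns by the test of the difference itself (shRNA effect minus siRNA effect, edgeR's quasi-likelihood test over 8 libraries). MMP7 differed by 4.46 on the log2 scale, with changes of 5.24 in the shRNA and 0.74 in the siRNA comparison. MMP13 differed by 2.72, with 3.03 and 0.30, and MMP2 by -1.61, with -1.41 and 0.17. MMP3 differed by 1.18 (SE 0.30, adjusted p = 0.015), with a change of 0.70 in the shRNA comparison and -0.50 in the siRNA comparison. These 4 differences were called under every alternative run, although that of MMP7 ranged from 2.79 without siRNA control replicate 2 to 5.32 without siRNA control replicate 1.

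The difference of 2.16 in MMP12 (adjusted p = 0.036) was lost without siRNA control replicate 2 (1.62, adjusted p = 0.15), without shCON replicate 1 (2.01, adjusted p = 0.12), without shETS1 replicate 2 (1.87, adjusted p = 0.12) and with the replicate number as a block (2.18, adjusted p = 0.103). In MMP14 the difference was 0.45 (adjusted p = 0.035), and it was lost without siRNA control replicate 1 (0.40, adjusted p = 0.11), without shCON replicate 2 (0.39, adjusted p = 0.16) and without shETS1 replicate 1 (0.39, adjusted p = 0.12). The difference of -0.57 in MMP28 (adjusted p = 0.078) was lost with the block (adjusted p = 0.19), without siRNA control replicate 1 (-0.36, adjusted p = 0.23), without ETS1 siRNA replicate 1 (-0.42, adjusted p = 0.15) and without any of the 4 hairpin libraries (-0.62 to -0.50). All 3 kept their sign under every alternative run. The causes of these differences were not tested.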

How the results depend on the processing

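The siRNA comparison depended on the processing. Its 502 calls became 1466 with no filter on low counts, 777 with DESeq2, 2166 with all 8 libraries in one fit and 97 with the replicate number as a block, and between 72 (without siRNA control replicate 1) and 1478 (without ETS1 siRNA replicate 1) when a library was left out. Among the members 0 calls became 1, MMP28, with DESeq2 size factors (adjusted p = 0.098), no filter, at least 10 counts in every library, DESeq2 (adjusted p = 0.016) and all 8 libraries in one fit, and 0 to 3 when a library was left out. The 3, without ETS1 siRNA replicate 1, were MMP28, MMP3 (-0.81, adjusted p = 0.039) and MMP9 (-0.83, adjusted p = 0.059). The cause was not tested.

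Groups share replicate numbers but no stated pairing. Same-numbered siRNA libraries deviated oppositely (r = -0.57 across 14742 genes, and -0.13 across 16481 in the shRNA libraries). A crossed replicate block, chosen after seeing the data, gave 3238 siRNA calls and 3 member calls, and 10923 and 8 in the shRNA comparison. The numbered block gave 9173 shRNA calls and 7 member calls, and 5 member calls in the test of the difference.

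The shRNA calls of 7 members kept their direction and side of the threshold under the alternatives run, which made 7 to 8 member calls, the eighth being MMP28, and 7608 to 10923 calls in all. MMP9 gave no value with at least 10 counts in every library. The test of the difference made 4131 to 6302 calls, with 5 to 8 members. Scaling by library size only moved the median of all genes by -0.13 (log2) in the shRNA comparison and turned no called member. No called result reversed. Counts were few for MMP7, MMP10 and MMP12 in the siRNA libraries and for MMP9 and MMP10 in the hairpin libraries.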

Other observations

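Members also differed in level between the control groups of the separately scaled tables, where reagent, selection and preparation cannot be told apart. MMP9 had a mean of 161 CPM in siRNA control and 0.530 CPM in shCON, and MMP14 had 1283 CPM and 388 CPM. MMP10 had 43 and 20 counts in siRNA control but 1 count in each shCON library. MMP1 had 43.1 CPM in siRNA control and 7.36 CPM in shCON. MMP7 and MMP28 had the opposite order, with 0.693 CPM and 35.1 CPM in siRNA control against 5.36 CPM and 77.4 CPM in shCON. The AP-1 factors did not share an order between these groups. FOSL1 was at 329 CPM in siRNA control and 23.0 CPM in shCON, JUNB at 156 CPM and 279 CPM, and FOSL2 at 151 CPM and 158 CPM. These differences were not tested.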
